A study of Homo sapiens with 2 samples.

Results

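The 10 genes described here, ALB, TF, TTR, SERPINA1, AHSG, FN1, RBP4, VTN, A2M and AMBP, encode plasma proteins that hepatocytes make and secrete. They were chosen by symbol, with earlier results of these data known, and all 10 were among the 14914 features measured. RNA immunoprecipitation sequencing had been run in HUH7 cells, an established human hepatocellular carcinoma line. The IP group was 1 library of RNA recovered with the protein CSTF2, and the Input group was 1 library of input RNA from the same line. The labels give no treatment or engineered change for either library, and a mock immunoprecipitation was not used here. The series asks which RNAs in these cells are bound by CSTF2. With 1 library per group no difference has a replicate check, so the 95% intervals given with the values hold counting error alone and every comparison describes these libraries.

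Plasma proteins are made on ribosomes at the endoplasmic reticulum, enter it through a signal peptide and leave the hepatocyte by the secretory pathway. Albumin carries fatty acids and sets most of the colloid osmotic pressure of blood, transferrin carries iron, and transthyretin and retinol-binding protein circulate together with retinol. Alpha-1-antitrypsin, alpha-2-macroglobulin and bikunin, the last cut from the AMBP precursor, restrain proteases, while fibronectin and vitronectin are adhesive proteins recognised by integrins. CSTF2, a subunit of the cleavage stimulation factor that contacts RNA, binds U-rich and GU-rich RNA just downstream of the cleavage site of a pre-mRNA, and the partner complex CPSF reads the poly(A) signal upstream of that site.

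Because CSTF2 acts at 3' ends, the annotated ends of the genes with the most reads and of the highest and lowest ratios are shown. Each line is the last 30 bases of the protein-coding transcript that ends farthest downstream in GENCODE v29 (GRCh38), 5' to 3' on the gene's strand, with T for U and the last poly(A) signal (AATAAA or ATTAAA) in capitals.
FN1, chr2:215360440-215360469, minus strand: gactaagatATTAAAagtatttgaatagta
TF, chr3:133796611-133796640, plus strand: ttttcAATAAAcctctgcttttgttgcttc
AMBP, chr9:114060127-114060156, minus strand: aAATAAAaactaaattgtaaactcctgaaa
ALB, chr4:73421383-73421412, plus strand: taattaAATAAAtcattaatactcttctaa
RBP4, chr10:93591687-93591716, minus strand: tATTAAAtactggcttctcccaacttcctg
TTR, chr18:31598992-31599021, plus strand: atctgcagccATTAAAaagacacattctgt
Within the last 40 bases, searched on the transcript's strand only, the last signal was AATAAA in 7 of the 10 genes and ATTAAA in FN1, RBP4 and TTR, so the highest and the lowest ratio of the 10 both belong to genes with ATTAAA there. The FN1 end also holds an AATAAA farther upstream in those 40 bases. The TF end is that of a transcript of 20602 bases, longer than the 8565 bases counted for TF. Whether it is the end of the TF mRNA counted here is therefore not known. Of the nuclear protein-coding features with an annotated end, 61.0% had AATAAA as the last signal, 15.8% had ATTAAA and 23.2% had neither. Their median log2 ratios of IP over Input were 0.17, 0.15 and 0.09, which lie close together. The genomic sequence after the cleavage site, where CSTF2 binds, was not analysed here.

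The depth was 3220045 assigned reads in IP RNA and 9517885 in Input RNA, with a median of 44 and 116 reads for a feature with a mean of at least 1 RPKM. RPKM is reads scaled to gene length and to the assigned reads of the library. CSTF2's own mRNA had 487 RPKM in IP RNA and 6.97 RPKM in Input RNA. All 10 hepatocyte-lineage and hepatoma markers checked were measured, among them AFP (26.9 RPKM in IP RNA, 30.7 RPKM in Input RNA), the oncofetal albumin relative, and HNF4A (6.71 RPKM in IP RNA, 4.80 RPKM in Input RNA), the hepatocyte nuclear receptor. Of 6 blood markers 2 had a row, with 26 reads in IP RNA and 38 in Input RNA: CD68 was 5.42-fold higher in IP RNA (2.57 to 12.01) on 22 and 12 reads and LYZ had a ratio of 0.455 (0.115 to 1.31). Of 7 stromal and endothelial markers 3 had one, with 120 and 338 reads. COL3A1 had 12 reads in IP RNA and 0 in Input RNA, and COL1A2 had a ratio of 1.32 (0.951 to 1.81). LUM (5.16 RPKM in IP RNA, 7.27 RPKM in Input RNA) was 1.41-fold lower in IP RNA (1.03 to 1.96).

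The levels of the 10 mRNAs spanned 253-fold in IP RNA, from A2M to AMBP, and 277-fold in Input RNA, from AHSG to AMBP. In such bulk RNA, fewer cells with a transcript and less of it per cell cannot be told apart. AMBP, on chromosome 9 (114060127 to 114078472, minus strand), was highest of the 10 in both libraries, at 295 RPKM in IP RNA (1942 reads) and 372 RPKM in Input RNA (7219 reads). ALB, on chromosome 4 (73397114 to 73421412, plus strand), was next, at 200 RPKM in IP RNA (2178 reads) and 254 RPKM in Input RNA (8173 reads). Both stood among the most abundant nuclear protein-coding features: AMBP ranked 16 in IP RNA and 17 in Input RNA of 7613, and ALB ranked 39 and 32. RBP4 had 50.6 RPKM in IP RNA and 57.1 RPKM in Input RNA.

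FN1 changed places with its neighbours. With 52.9 RPKM in IP RNA (2949 reads) and 23.5 RPKM in Input RNA (3869 reads), it was the third in IP RNA and the fifth in Input RNA, where RBP4 and TF stood above it. TF had 40.2 RPKM in IP RNA and 30.3 RPKM in Input RNA. VTN had 14.5 RPKM in IP RNA and 11.5 RPKM in Input RNA, and SERPINA1 had 10.8 RPKM in IP RNA and 13.2 RPKM in Input RNA.

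At the low end, TTR had 1.43 RPKM in IP RNA (10 reads) and 4.25 RPKM in Input RNA (88 reads). AHSG, the gene for the fetuin that keeps calcium phosphate soluble in blood, had 1.45 RPKM in IP RNA (11 reads) and 1.34 RPKM in Input RNA (30 reads). A2M had 1.17 RPKM in IP RNA (24 reads) and 1.51 RPKM in Input RNA (92 reads). In the order of the IP levels, the exact Poisson intervals of neighbours overlapped for FN1 and RBP4, for VTN and SERPINA1, and among AHSG, TTR and A2M. In the Input they overlapped for SERPINA1 and VTN and for A2M and AHSG.

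**Figure D1:**
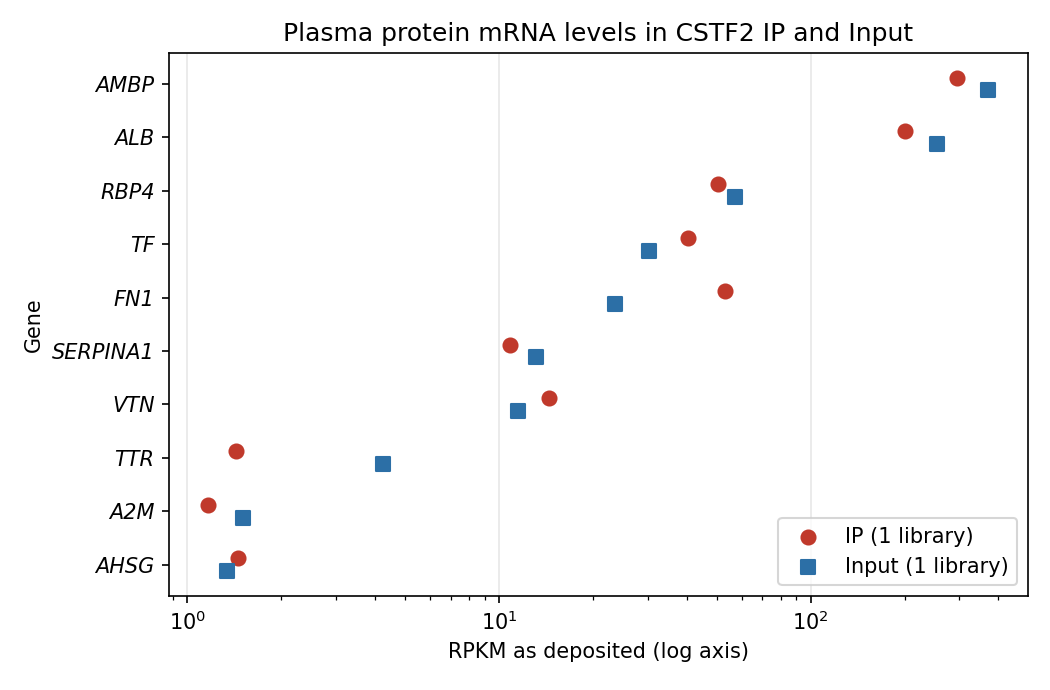
Level of each plasma protein mRNA in RPKM on a log axis, with the CSTF2 IP library as red circles and the Input library as blue squares, genes ordered by Input level. AMBP and ALB lie highest in both libraries, FN1 has 52.9 RPKM in IP RNA against 23.5 RPKM in Input RNA, and TTR has 1.43 RPKM in IP RNA against 4.25 RPKM in Input RNA.

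RPKM divides by the whole exon length counted for a gene, which for these genes was 1.44 to 4.93 times the coding length of the APPRIS principal transcript in GENCODE v29. TTR was counted over 2173 bases for a coding length of 441 bases, TF over 8565 bases for 2094, SERPINA1 over 4902 bases for 1254 and FN1 over 17315 bases for 6528. With coding length in place of counted length in the RPKM formula, AMBP (571 in IP RNA, 718 in Input RNA) and ALB (370 in IP RNA, 470 in Input RNA) were still highest. TF reached 165 in IP RNA and 124 in Input RNA on that scale and FN1 140 and 62.3, so that TF stood above FN1 in both libraries. TTR came to 7.04 in IP RNA and 21.0 in Input RNA. Reads in untranslated regions are included, so this scale overstates genes with long ones. The choice of length cancels in the RPKM ratio of IP over Input, but not once a pseudocount is added: the log2 ratio of TTR was -1.57 without one and -1.11 with 1 RPKM.

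Of the 10 genes, all of which passed the minimum of 1 RPKM on average, 1 was at least 2-fold higher in IP RNA (FN1) and 1 at least 2-fold lower (TTR), on the scale log2((IP + 1)/(Input + 1)). Over all 9880 features past that minimum, 9.88% passed the higher limit and 6.83% the lower one, so counts of 1 in 10 are near the background. Among nuclear protein-coding features alone these shares were 5.73% and 5.19%. The median log2 ratio was -0.19 over the 10 genes, 0.17 over all features and 0.15 over nuclear protein-coding features. By the counting interval of the RPKM ratio, FN1 and TF lay above 1, while ALB, AMBP, SERPINA1 and TTR lay below 1, and the intervals of A2M, AHSG, RBP4 and VTN included 1. Over the 9879 features past the minimum with recovered reads, 36.1% had an interval above 1 and 20.1% had one below 1.

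**Figure D2:**
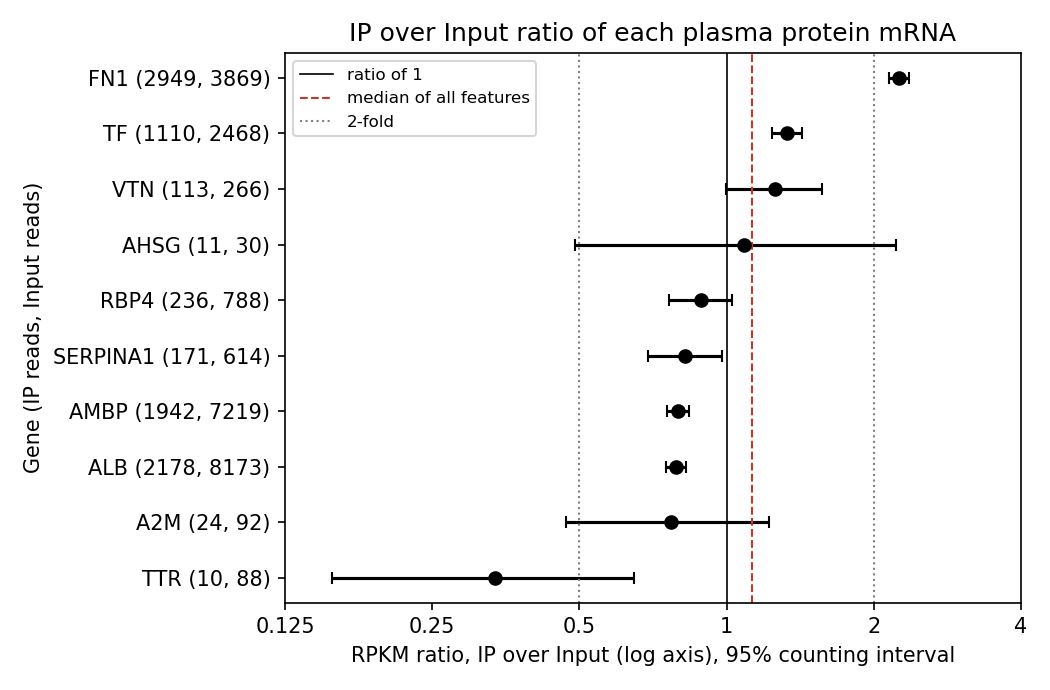
RPKM ratio of IP over Input for each gene on a log axis, with the 95% counting interval as a bar and the IP and Input reads in parentheses; the dashed line is the median ratio of all features, 1.13. FN1 lies above 2-fold with a narrow interval, and TTR lies lowest with the widest interval below 1.

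Among the carriers, ALB was 1.27-fold lower in IP RNA than in Input RNA (1.21 to 1.33). TF was 1.33-fold higher in IP RNA (1.24 to 1.43). RBP4, the retinol carrier, had a ratio of 0.885 (0.762 to 1.03), and TTR, which binds retinol-binding protein and thyroxine, was 2.98-fold lower in IP RNA (1.54 to 6.42). RBP4 and TTR, whose products form a complex, therefore had unlike ratios with intervals that do not overlap, and RBP4 exceeded TTR 35.4-fold by RPKM in IP RNA and 13.4-fold in Input RNA. The TTR value rests on 10 IP reads, and with a pseudocount of 5 RPKM its log2 ratio was -0.53, short of 2-fold. Relative to the median of all features, the log2 ratio was 0.23 for TF, -0.35 for RBP4, -0.52 for ALB and -1.29 for TTR.

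With a pseudocount of 1 RPKM the protease inhibitors had log2 ratios within a narrow band. A2M, with 24 IP reads and 92 Input reads, was the highest of them on that scale. Without a pseudocount it was the lowest, at -0.38. AMBP, the precursor of alpha-1-microglobulin and bikunin, was 1.26-fold lower in IP RNA (1.20 to 1.32). SERPINA1, the gene for the inhibitor of neutrophil elastase on chromosome 14, was 1.21-fold lower (1.02 to 1.45), and A2M had a ratio of 0.771 (0.470 to 1.22). Their log2 ratios ran only from -0.33 to -0.21 although AMBP exceeded SERPINA1 27.3-fold by RPKM in IP RNA and 28.2-fold in Input RNA. AMBP and ALB were also alike: the ratio of ALB to AMBP by RPKM was 0.678 in IP RNA and 0.684 in Input RNA.

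The adhesive proteins and fetuin-A had log2 ratios above 0 as deposited, and of these 3 genes only FN1 stayed above 0 under every pseudocount and scaling tried. FN1, on chromosome 2 (215360440 to 215436172, minus strand), was 2.25-fold higher in IP RNA (2.15 to 2.36), above 92.5% of all features and 96.4% of nuclear protein-coding ones. VTN, on chromosome 17, had a ratio of 1.26 (0.999 to 1.57), and AHSG had 1.08 (0.490 to 2.22). FN1 exceeded VTN 3.66-fold by RPKM in IP RNA and 2.04-fold in Input RNA. The FN1 interval lay wholly above 2-fold, which held for 6.76% of all features, and no gene of the 10 had an interval wholly below 2-fold lower, which held for 2.87%. With the ratios centred on the median of all features the log2 ratio of FN1 was 0.97, just under 2-fold, and with trimmed mean scaling it was 0.81.

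The 10 genes together took 0.272% of IP reads (Wilson interval 0.266 to 0.277) and 0.248% of Input reads (0.245 to 0.251), which gives a ratio of 1.09 (1.07 to 1.12). Without FN1 the other 9 took 0.180% of IP reads and 0.207% of Input reads, giving a ratio of 0.868 (0.843 to 0.894), so FN1 alone turned the sum. Among the reads of the 10 genes, FN1 made up 33.7% in IP RNA and 16.4% in Input RNA. ALB made up 24.9% in IP RNA and 34.6% in Input RNA, and AMBP 22.2% and 30.6%. Features named MT-, the mitochondrial genes, took 61.8% of the IP reads and 61.6% of the Input reads. Nuclear protein-coding features, the class of all 10 genes, took 33.3% of IP reads and 28.9% of Input reads. Scaling to the reads of that class multiplies IP values by 0.868, so within the class the 10 genes had the larger share in Input RNA.

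**Figure D3:**
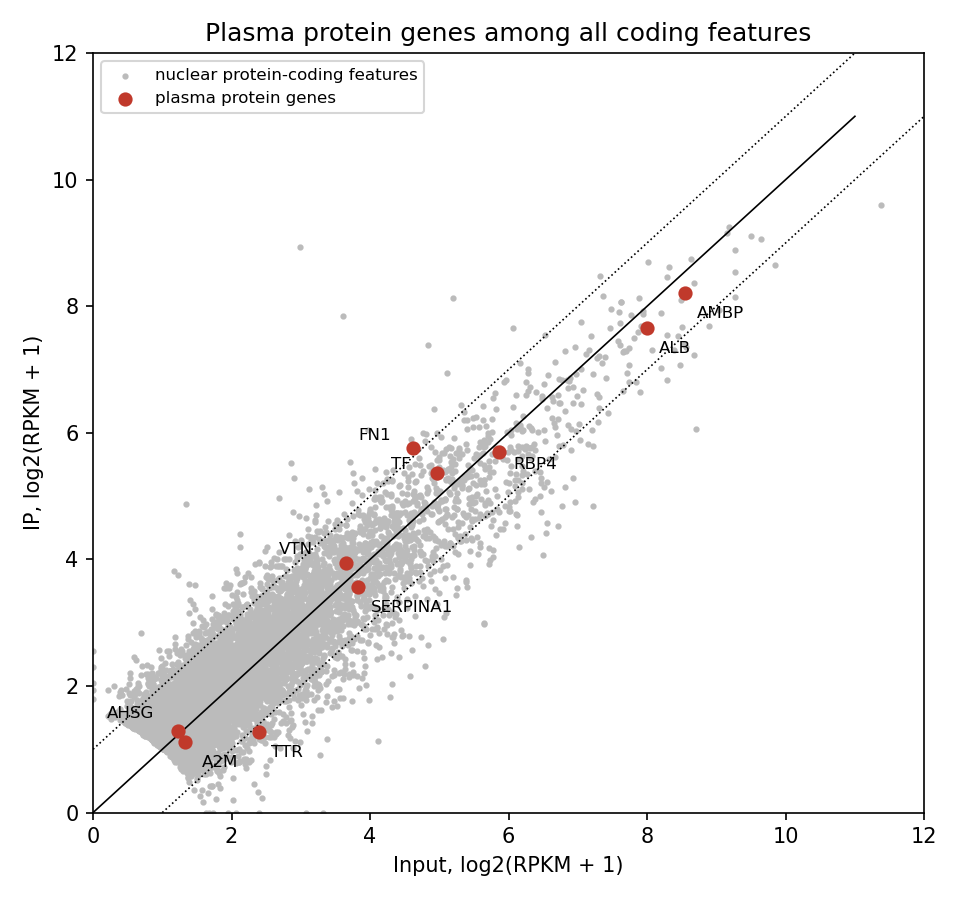
IP level against Input level, both as log2(RPKM + 1), for 7613 nuclear protein-coding features in grey and the plasma protein genes in red; the solid line marks equal levels and the dotted lines 2-fold. FN1 lies just above the upper dotted line and TTR just below the lower one, with the other 8 genes between them.

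Ratios across the table moved with gene length, and part of the order among the 10 genes ran with it. Across 7612 nuclear protein-coding features, Spearman's rho between counted length and log2 ratio was 0.39, and across the 10 genes it was 0.50, or 0.32 without FN1. With coding length rho was higher: 0.57 over the nuclear protein-coding features that have one, and 0.56 over the 10 genes, or 0.40 without FN1. The length classes below are of counted length only. These are descriptions across genes that share 2 libraries. Divided into 5 length classes of equal size, the features of the shortest class (312 to 2739 bases) had a median log2 ratio of -0.30 and those of the longest (7827 to 118976 bases) 0.45. In the shortest class 2.95% passed the higher 2-fold limit and 16.4% the lower one, and in the longest 11.6% and 0.328%. FN1 and TF belonged to the longest class, and TTR, RBP4, AMBP, AHSG and VTN to the shortest.

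Set beside the median of its own length class, FN1 was 0.69 higher on the log2 scale and TTR lay at -0.81. VTN was 0.60 higher and AHSG 0.37 higher, while TF (-0.05) and AMBP (-0.03) were at their class medians. SERPINA1 at -0.42, A2M at -0.46 and ALB at -0.36 were below theirs. The part of length in these ratios was not tested. No such order with abundance can be read from these values: rho between level and log2 ratio over the nuclear protein-coding features was -0.39 with Input RPKM, which is itself the denominator of the ratio, -0.12 with mean RPKM and 0.16 with IP RPKM. Among nuclear protein-coding features 47 averaged 200 RPKM or more over the libraries, a limit chosen after the values were seen. Their median of -0.33 on the log2 scale is the value of AMBP itself, so AMBP cannot be compared with it. ALB, also among them, was at -0.34. With 200 RPKM or more required in Input RNA, the denominator of the ratio, 47 features had a lower median of -0.57.

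**Figure D4:**
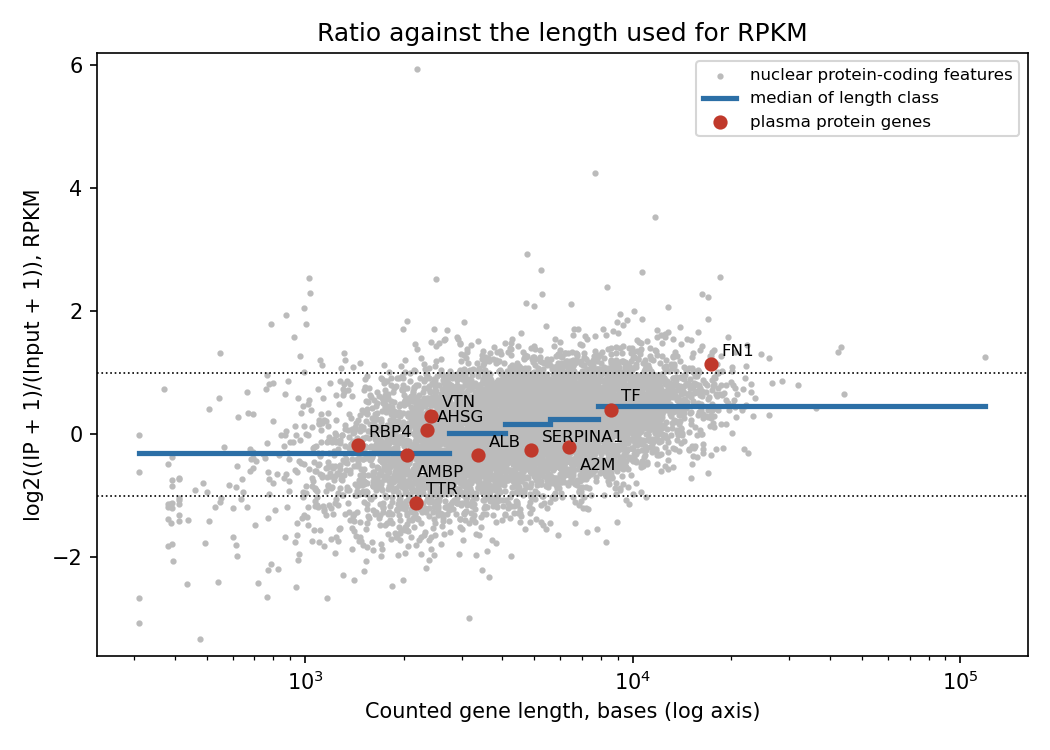
Log2 ratio of IP over Input (pseudocount of 1 RPKM) against the gene length used for RPKM on a log axis, for nuclear protein-coding features in grey, with the median of each of 5 length classes as a blue line and the plasma protein genes in red. The class medians run from -0.30 to 0.45, and FN1 and TTR lie farthest from theirs.

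The measured profiles nearest to ALB by distance in log2(RPKM + 1) over the 2 libraries were those of HNRNPA1 (205 RPKM in IP RNA, 239 RPKM in Input RNA), UBB (193 and 233 RPKM) and ANKRD1 (234 and 245 RPKM). None of these encodes a plasma protein, and HNRNPA1 and UBB have near-identical copies with which reads can be shared. The profiles nearest to FN1 were those of NES (54.9 RPKM in IP RNA, 23.5 RPKM in Input RNA), PLXNB2 (52.8 and 24.9 RPKM) and SMC1A (58.7 and 23.1 RPKM). They encode the intermediate filament nestin, a semaphorin receptor and a cohesin subunit.

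Of all nuclear protein-coding features, 5.73% passed the higher 2-fold limit and 5.19% the lower one. Counts of none or 1 in the short lists below are near those shares. Among other plasma carriers, 11 of 13 genes had a row and 9 passed the minimum, with a median log2 ratio of -0.13. None was past the higher 2-fold limit and 1 was past the lower one. That 1 was SEPP1, the gene for the selenium carrier selenoprotein P, with 4.80 RPKM in IP RNA (88 reads) and 16.4 RPKM in Input RNA (888 reads), 3.41-fold lower in IP RNA (2.74 to 4.30). It was counted over 5688 bases, against 2173 for TTR, but its coding length is not given here. The part of length in its ratio was not tested. CCDC152 had nearly the same levels, 5.16 RPKM in IP RNA and 16.5 RPKM in Input RNA. Genes that overlap SEPP1 were not looked up, so whether SEPP1 shares reads with CCDC152 or another gene was not tested. The acute-phase carrier genes ORM1 and ORM2, near-identical neighbours whose reads can be shared, had ratios of 0.915 (0.827 to 1.01) and 1.69 (1.40 to 2.03). The heme carrier gene HPX was 1.47-fold higher (1.05 to 2.02), and APOH had a ratio of 0.601 (0.294 to 1.13).

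Among other protease inhibitors, 13 of 20 genes had a row, 9 passed and none was past 2-fold in either direction, with a median log2 ratio of 0.25. ITIH2, whose product is joined to the bikunin that AMBP encodes, was 1.28-fold higher in IP RNA (1.07 to 1.52). SERPINF2, the gene for alpha-2-antiplasmin, had a ratio of 2.07 (0.967 to 4.31), less than 2-fold on the pseudocount scale. SERPIND1 had a ratio of 0.896 (0.612 to 1.28) and SERPINF1 one of 0.962 (0.599 to 1.5). The 9 genes past the minimum thus lay above AMBP in log2 ratio. The lowest of them, SERPIND1, was at -0.13 and AMBP was at -0.33, although the interval of SERPIND1 covers that of AMBP. Of the genes with a row, only SERPING1 had a lower RPKM ratio than AMBP. It was below the minimum, with a ratio of 0.591 (0.0630 to 2.77) on 2 and 10 reads.

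Other adhesion proteins (5 of 9 genes with a row, all past the minimum) had no member past 2-fold and a median of 0.26. THBS1, the gene for thrombospondin 1 and the best covered of them, had 57.1 RPKM in IP RNA (1683 reads) and 47.0 RPKM in Input RNA (4097 reads), 1.21-fold higher in IP RNA (1.15 to 1.29). LGALS3BP was 1.72-fold higher (1.11 to 2.63), FBLN1 had a ratio of 1.12 (0.930 to 1.35) and EFEMP1 was 1.45-fold lower (1.16 to 1.84). FN1 was above all 5, and its interval (2.15 to 2.36) overlapped only that of LGALS3BP.

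Of 20 complement genes 8 had a row and 6 passed, with none past 2-fold and a median of 0.37. C3, the central complement component and a relative of A2M, had 111 RPKM in IP RNA (2965 reads) and 75.4 RPKM in Input RNA (5978 reads), 1.47-fold higher in IP RNA (1.40 to 1.53). C9 was 1.89-fold higher (1.21 to 2.90), whereas CFI had a ratio of 0.926 (0.748 to 1.14) and MASP1 one of 1.13 (0.841 to 1.51). Of 22 acute-phase and other secreted proteins 9 had a row and 6 passed, with none past 2-fold and a median of -0.27. LRG1 was 2.53-fold higher by ratio (1.5 to 4.25) and PROC, the gene for protein C, 1.84-fold higher (1.36 to 2.47). FGL1 was 1.73-fold lower (1.06 to 2.94) and ANG 4.23-fold lower on 2 and 25 reads (1.05 to 36.8).

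**Figure D5:**
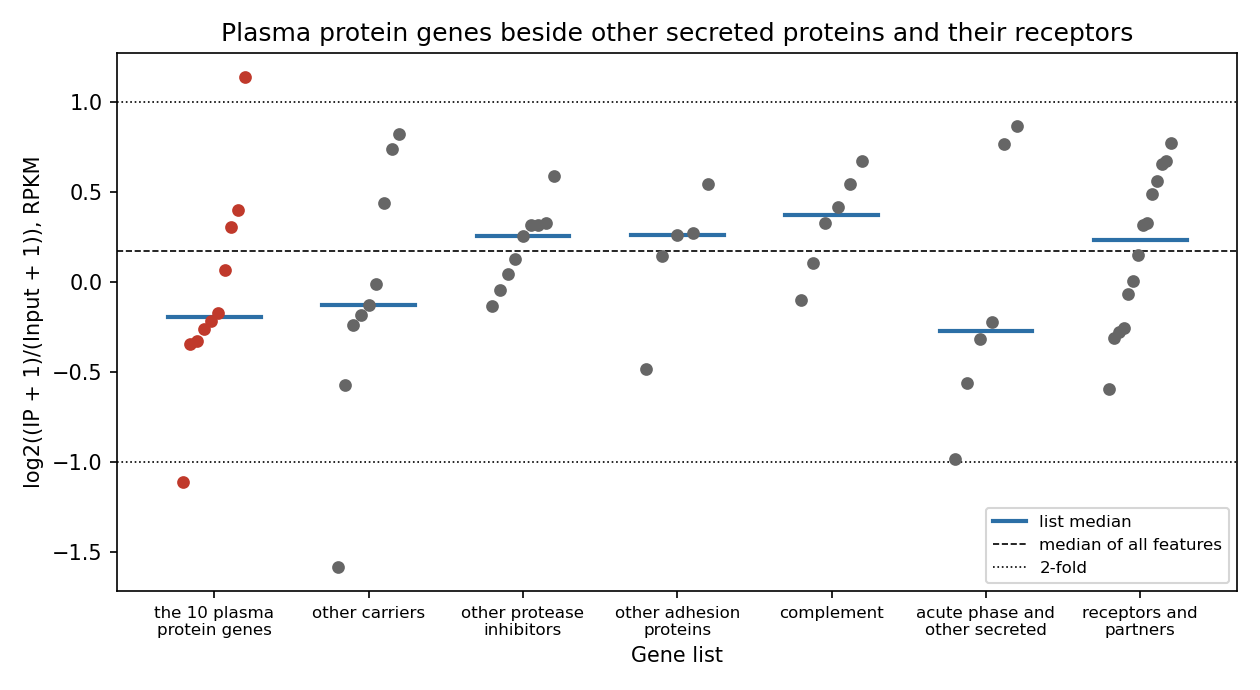
Log2 ratio of IP over Input (pseudocount of 1 RPKM) for the 10 plasma protein genes in red and the members past the minimum of 6 further lists in grey, with list medians as blue lines, the median of all features as a dashed line and 2-fold as dotted lines. FN1 is the only point above the upper dotted line, and TTR and SEPP1 are the only points below the lower one.

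Of 20 receptors and partners of the 10 proteins, 16 had a row and 14 passed, with a median of 0.23. None was past 2-fold on the pseudocount scale, which in a list this short is near the background shares. TFR2, a liver receptor for transferrin, was 2.14-fold higher by ratio (1.5 to 3.04), and TFRC, the receptor most cells use, had a ratio of 1.12 (0.947 to 1.33). FCGRT, the receptor that rescues albumin from degradation, was 2.20-fold lower by ratio (1.12 to 4.80) on 10 and 65 reads. ITGB1, part of the main fibronectin receptor, was 1.25-fold lower (1.12 to 1.40), opposite in direction to FN1. INSR, the insulin receptor gene, whose signalling fetuin-A restrains, was 1.74-fold higher (1.48 to 2.03). The intervals of the transferrin receptors TFR2 and TFRC did not overlap.

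Some of the genes share exon bases with neighbours in GENCODE v29. The exons of TF share 191 bases with the pseudogene TFP1 (39 reads in IP RNA, 84 in Input RNA) and 112 bases with SRPRB (58 and 230 reads), against 1110 and 2468 reads of TF. TF was counted over 8565 bases, fewer than its 26199 exon bases in GENCODE v29, so whether these shared bases were counted is not known. Those of VTN share 329 bases with AC002094.3, a protein-coding gene on the same strand, and those of A2M share 561 bases with A2M-AS1 on the opposite strand. Reads of AC002094.3 and A2M-AS1 were not analysed here, so the part of these genes in the VTN and A2M values was not tested, and A2M has only 24 and 92 reads. SARM1 (101 and 140 reads) and FFAR4 (10 and 6 reads) lie over the spans of VTN and RBP4 on the other strand with no exon bases in common. No protocol names a step that keeps strand, so whether reads of opposite strands were told apart is not known.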

How the data were processed

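The deposited table holds, per the file headers, RPKM values of the IP and Input libraries and a log2 fold change between them. Per the submitters' processing notes, FastQC 0.12.0 and hg38 were used; for aligner, counter and annotation, nothing is given in the sources used. The deposited log2 fold change served only to recover reads: depths were found from the steps of the RPKM values at GENCODE v29 exon lengths, and whole reads (tolerance 0.01) followed for 14913 of 14914 features, with a prior count of 0.125. For TF and TTR the length came from this relation, since it differed from GENCODE v29. The measure was log2((IP + 1)/(Input + 1)) of RPKM, which understates low genes, where the mean reached 1 RPKM. Ratio intervals are exact conditional (Clopper-Pearson) and shares have Wilson intervals, at 95%; PCR reads are not independent molecules. Ratios are given without a pseudocount. The script was tested on simulated data. With 1 library per group, no test was made. The members and lists were chosen with earlier results of these data known. Named were the 10 genes, CSTF2, the 3 nearest profiles to ALB and FN1, and overlapping genes. So were the 2 highest and 2 lowest of each list with at least 20 reads. Other genes (ORM1, TFRC, AFP, HNF4A, CCDC152, COL3A1) were chosen after their values were seen. Python 3.11.15, scipy 1.17.1 and pandas 2.3.3 were used. Pseudocount, filter, scaling and threshold were varied. A gene of the complement list is not reported here and was left out of that list.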

Additional observations from a re-analysis of the deposited data

How the results depend on the processing

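No paired analysis was possible because each group has 1 library. FN1 as the 1 gene at least 2-fold higher held under both other pseudocounts, both other filters, a 1.5-fold threshold, the counting interval and a minimum of 20 reads, the last chosen after the data were seen. The count was 0 with ratios centred on the median, with scaling to nuclear protein-coding reads and with trimmed mean scaling, where the FN1 log2 ratio was 0.97, 0.94 and 0.81. These scalings moved the median of all features from 0.17 to 0, 0.02 and -0.07. The count of genes at least 2-fold lower, 1 (TTR), was 0 with a pseudocount of 5 RPKM, with a filter of 5 RPKM, which left 7 of the 10 genes without TTR, AHSG and A2M, and by the counting interval. The median log2 ratio of the 10 genes, -0.19, was -0.37, -0.35 and -0.44 under the same scalings in that order. Of 50 values of single genes under other pseudocounts and scalings, 35 stayed within the half-width of the gene's interval and 15 did not; AHSG (-0.12 to 0.11) and VTN (-0.0033 to 0.33) changed sign, and neither was past 2-fold. The share of reads held by the 10 genes, 0.272% of the IP and 0.248% of the Input, was 0.712% and 0.646% outside features named MT-. As a share of summed RPKM it was 0.0764% and 0.0910%, so the library with the larger share differed. The causes of these changes were not tested, beyond the smaller number of genes under the filter. Depth limits TTR, AHSG and A2M, with 10, 11 and 24 IP reads.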
